A study of Homo sapiens with 3 samples.

Results

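Ether lipid and lysophospholipid enzymes were examined as a set of 10 genes, namely FAR1, FAR2, GNPAT, AGPS, AGMO, LPCAT1, LPCAT2, LPCAT3, LPCAT4 and PAFAH2, among 18417 genes measured. They were listed by function and found by symbol in the array annotation, and each had 1 probe set of its own and no probe set shared with another gene. The set was chosen by function and by log2 differences between these same arrays, in which AGMO and LPCAT2 already stood out, so the values below describe the arrays and nothing was tested on them. The cultures were parental LoVo, a long-established colorectal cancer cell line of human origin, and LoVo-R8, a derivative of it adapted to irinotecan by raising the dose from 0.1 to 8 μM. LoVo-R8 was measured after culture free of irinotecan (LoVo 8R-, called 8R- cells below) and in culture with 8 μM irinotecan (LoVo 8R+, called 8R+ cells). Irinotecan is a camptothecin drug that traps topoisomerase I on DNA. A treatment note shared by the labels of all cultures places irinotecan 24 hours before RNA purification, and the sources used here do not say whether parental cells received it. The resistant cells come from a single selection.

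Each culture was measured on 1 Affymetrix Human Gene 1.0 ST array, so no value has an error and no test was possible, and precision is limited by having 3 arrays. Values are RMA levels on a log2 scale, where a difference of 1 is 2-fold, and 2-fold was the limit for counting a gene as higher or lower. The first quartile of the probe sets lay at 5.39 in parental LoVo, 5.42 in 8R- cells and 5.39 in 8R+ cells, and levels below it are treated here as dim. The LoVo-R8 arrays differed from each other by less than 0.53 for 95% of genes, which is a scale for small differences but not a replicate error, since the drug differed between them. Of 12 colon epithelial markers, EPCAM, KRT8, KRT18 and KRT19 were between 11.74 and 13.27 on all arrays. KRT20 (6.40), CDX1 (6.95) and VIL1 (7.20) were weak in parental LoVo. EPCAM, KRT8, KRT18 and KRT19 had differences from parental LoVo between -0.54 and -0.18 on the LoVo-R8 arrays, and CDX2 had 0.35 and 0.91. The median difference of the 12 was -0.34 in 8R- cells and -0.23 in 8R+ cells, against 0.00 for all genes. CDH17 was at least 2-fold higher (1.07 and 1.13 on the log2 scale) and LGALS4 and CEACAM5 at least 2-fold lower on both LoVo-R8 arrays, and GPA33 was higher in 8R+ cells (1.39). Of the markers of other cell types, 0 of 7 fibroblast, 0 of 5 endothelial and 1 of 8 leukocyte genes were 2-fold different in either LoVo-R8 culture. The leukocyte gene was CD68, which encodes a lysosomal protein (9.64, 11.12 and 11.51), while the defining leukocyte gene PTPRC stood at 4.12 on all arrays.

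Ether lipids carry a fatty alcohol bound to glycerol by an ether bond in place of an ester, and plasmalogens are the most common of them in human membranes. FAR1 and FAR2 make the fatty alcohol, and GNPAT and AGPS begin ether lipid synthesis inside peroxisomes. AGMO cleaves the ether bond, with tetrahydrobiopterin as its cofactor. The LPCAT enzymes put an acyl chain back onto lysophospholipids, the step that remodels phosphatidylcholine after phospholipase A2 has removed a chain. LPCAT1 and LPCAT2 can also acetylate an ether lysophospholipid to give platelet-activating factor (PAF), which PAFAH2 inactivates inside the cell.

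Of the 10 genes, AGMO and LPCAT3 were higher and LPCAT2 was lower than in parental cells by 2-fold or more, both in 8R- cells and in 8R+ cells. Among all genes, 1.64% were higher and 2.78% lower at this limit in 8R- cells, and 2.25% and 2.3% in 8R+ cells. The genes were listed with these differences known, so nothing is read from the counts. The other 7 genes lay between -0.21 and 0.21 of parental LoVo in 8R- cells and between -0.12 and 0.69 in 8R+ cells (log2 difference). Both LoVo-R8 comparisons use the same parental array.

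**Figure D1:**
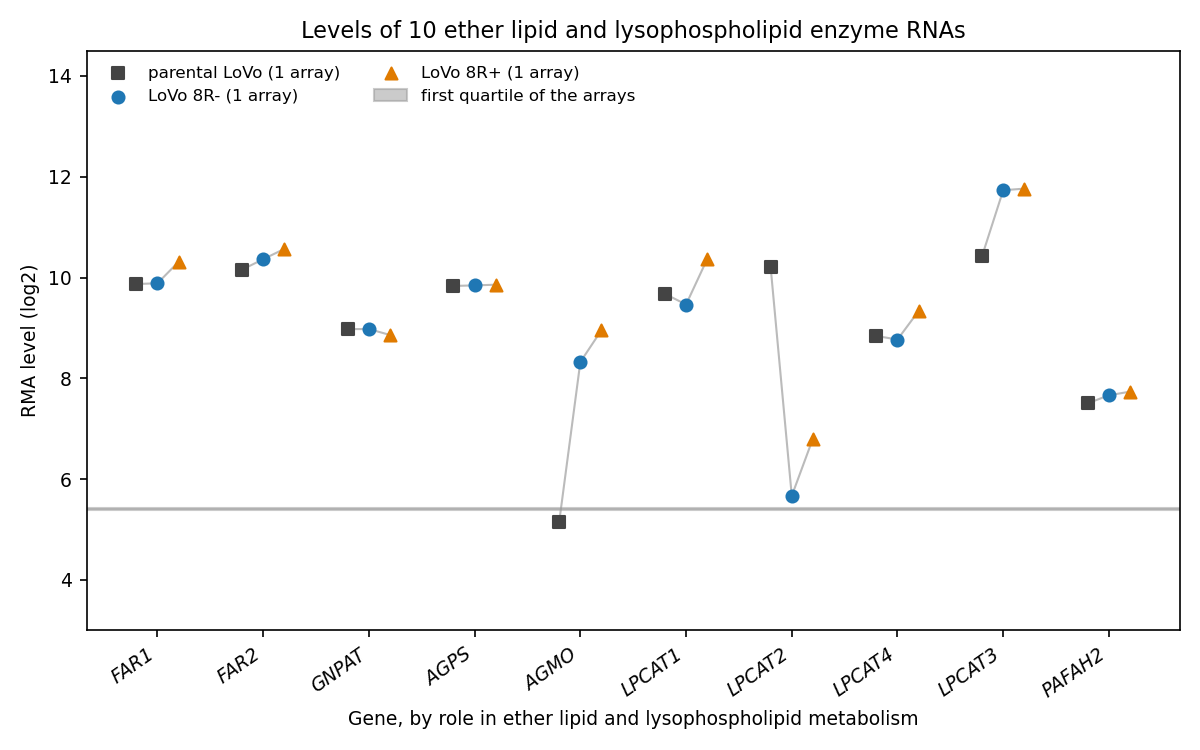
RMA levels (log2, vertical axis) of the 10 enzyme RNAs in parental LoVo (squares), 8R- cells (circles) and 8R+ cells (triangles), 1 array each, with the first quartile of the arrays as a grey band. AGMO is below the band in parental LoVo (5.15) and above 8 on both LoVo-R8 arrays, while LPCAT2 drops from 10.21 to 5.67 and 6.80.

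The upstream sequences of the genes that were higher on both LoVo-R8 arrays are shown here because they differ in base composition. Each is the 250 bases before the RefSeq gene start in GRCh38.p14, written 5′ to 3′ on the strand of the gene. AGMO lies at chr7:15562016-15562265 and LPCAT3 at chr12:7018477-7018726, both on the minus strand. Capitals mark matches on either strand to 3 motifs. The TATA box was searched as TATAAA. The CCAAT box was searched by the letters of its name, and the GC box was searched as GGGCGG. A match on the opposite strand appears as its reverse complement.
AGMO: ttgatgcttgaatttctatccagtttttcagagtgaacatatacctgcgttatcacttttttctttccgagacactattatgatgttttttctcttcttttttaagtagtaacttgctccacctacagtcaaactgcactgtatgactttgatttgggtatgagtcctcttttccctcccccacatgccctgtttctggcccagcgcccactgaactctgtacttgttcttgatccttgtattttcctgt
LPCAT3: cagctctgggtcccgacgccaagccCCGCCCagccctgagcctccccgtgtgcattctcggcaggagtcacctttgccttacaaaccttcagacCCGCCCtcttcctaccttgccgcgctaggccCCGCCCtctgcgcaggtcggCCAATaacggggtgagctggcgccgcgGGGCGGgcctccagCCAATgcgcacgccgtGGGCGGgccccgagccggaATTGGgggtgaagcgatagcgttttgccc
The AGMO window had 3 CpG dinucleotides, 40.4% G or C and 0 matches to any of these motifs. The LPCAT3 window had 24 CpG dinucleotides, 69.2% G or C, 5 GC boxes and 3 CCAAT boxes. Among 35093 such windows of all RefSeq genes, the median was 11 CpG dinucleotides, and 42.6% held a GC box, 32.0% a CCAAT box and 10.7% a TATA box. No match means only that these letters are absent from the window. A sequence was found for 9 of the 10 genes, and LPCAT2 was not among them. The 8 windows of the other 7 genes held from 2 CpG dinucleotides at one of the FAR2 starts to 34 at LPCAT4, and all of these genes were within 2-fold of parental LoVo.

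FAR1, the fatty acyl-CoA reductase that sets the supply of fatty alcohol, had levels of 9.87 in parental LoVo, 9.89 in 8R- cells and 10.31 in 8R+ cells. Its paralog FAR2 had 10.16, 10.36 and 10.57. Both reductase genes were highest in 8R+ cells, at 1.36-fold and 1.33-fold of parental LoVo, and neither reached 2-fold. In 8R- cells the log2 differences were 0.02 for FAR1 and 0.21 for FAR2.

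GNPAT, which acylates dihydroxyacetone phosphate, had the same level of 8.98 in parental LoVo and 8R- cells, and 8.86 in 8R+ cells. Exact ties of this kind are common after RMA on few arrays and occur for 26.1% of probe sets. AGPS, which exchanges that acyl chain for a fatty alcohol and so forms the ether bond, had 9.83, 9.84 and 9.86. Its log2 differences of 0.01 and 0.02 kept it within 0.03 of parental LoVo on both LoVo-R8 arrays. The genes of the peroxisomal steps were thus near their parental levels on both arrays.

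AGMO, the alkylglycerol monooxygenase that breaks the ether bond, measured 5.15 in parental cells, 8.32 in 8R- cells and 8.96 in 8R+ cells. The parental level was below the first quartile of its array, and both LoVo-R8 levels were above the array medians of 6.95 and 6.94. The differences were 3.17 and 3.80 on the log2 scale, or 9.01-fold and 14.0-fold. Counted from the highest difference down among all genes, AGMO ranked 5 in 8R- cells and 3 in 8R+ cells. The fold depends on a parental signal where background weighs most, and no detection call was used here. The level in 8R+ cells exceeded that in 8R- cells by 0.63.

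LPCAT2, which acylates lysophosphatidylcholine and acetylates the PAF precursor, measured 10.21 in parental cells, 5.67 in 8R- cells and 6.80 in 8R+ cells. It was the lowest of the 10 genes in difference on both arrays, at -4.54 and -3.40, or 23.3-fold and 10.6-fold below parental LoVo. Counted from the lowest difference up among all genes, it ranked 8 in 8R- cells and 19 in 8R+ cells. Its level in 8R- cells was close to the first quartile of that array, and in 8R+ cells it was under the array median. LPCAT2 is well known from macrophages. Of the 8 measured leukocyte markers, CD68 alone was past 2-fold, and it was higher in LoVo-R8. PTPRC and AIF1 had the same dim level on all arrays. TYROBP (7.17, 7.53 and 7.11), CD14, ITGAM, CSF1R and CD3E were not dim and lay within 2-fold of parental LoVo. The part of leukocyte genes in the LPCAT2 difference was not tested.

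The other lysophosphatidylcholine acyltransferase genes did not share the LPCAT2 difference. LPCAT1, of the same acyltransferase family and known for saturated phosphatidylcholine in lung surfactant, had levels of 9.68, 9.46 and 10.37. It was slightly below parental LoVo in 8R- cells (-0.21) and above it in 8R+ cells (0.69). LPCAT4, another member of that family, had 8.84, 8.77 and 9.34, with differences of -0.07 and 0.50. LPCAT1 and LPCAT4 thus had their highest level in 8R+ cells. The small LPCAT4 difference in 8R- cells turned to 0.01 under loess and 0.03 under repeated quantile normalization, so its order against parental LoVo is not settled.

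LPCAT3, a membrane-bound O-acyltransferase that favours polyunsaturated chains such as arachidonate, had 10.43 in parental LoVo, 11.73 in 8R- cells and 11.76 in 8R+ cells. The differences from parental LoVo were 1.31 and 1.34, or 2.47-fold and 2.53-fold, and the LoVo-R8 arrays were within 0.03 of each other. LPCAT3 was bright on all arrays, and 2.32% of genes in 8R- cells and 2.37% in 8R+ cells had a difference at least this large in either direction. PAFAH2, the intracellular PAF acetylhydrolase, had 7.50, 7.66 and 7.74, with differences of 0.16 and 0.23.

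**Figure D2:**
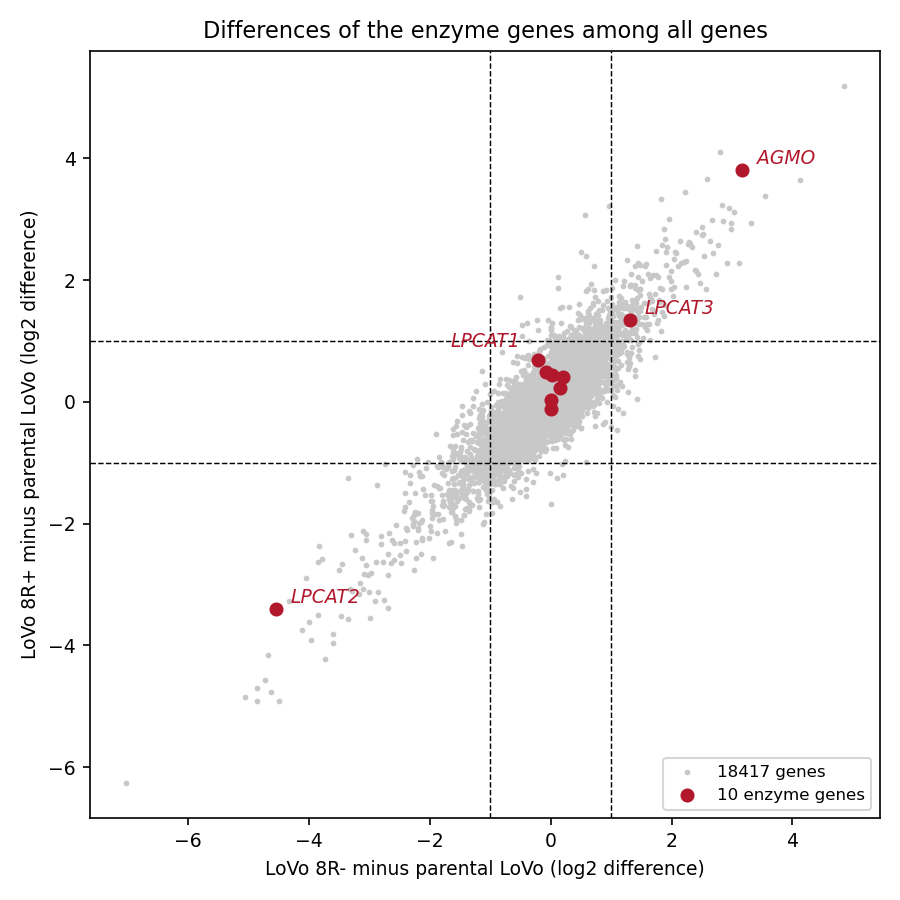
Log2 difference from parental LoVo in 8R- cells (horizontal axis) and 8R+ cells (vertical axis) for 18417 genes (grey) and the 10 enzyme genes (red), with dashed lines at 2-fold; both axes share the parental array. AGMO (3.17 and 3.80) and LPCAT2 (-4.54 and -3.40) lie near opposite ends, LPCAT3 is just past 2-fold, and LPCAT1 is among the genes within 2-fold.

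The LoVo-R8 cultures with and without irinotecan were then compared directly. LPCAT2 was the single gene of the set past 2-fold, with 8R+ cells above 8R- cells by 1.14, or 2.20-fold, from a level of 5.67, just above the first quartile. Among all genes 0.527% were higher and 0.114% lower at this limit. At 1.5-fold LPCAT2, LPCAT1 (0.90) and AGMO (0.63) were higher in 8R+ cells, 3 of 10 genes, against 2.87% of all genes. LPCAT4 (0.57) and FAR1 (0.43) followed. The remaining differences ran from -0.12 for GNPAT to 0.20 for FAR2. For 9 of the 10 genes the deposited level in 8R+ cells was above that in 8R- cells, and GNPAT was the exception. Of all genes 39.4% were above and 48.4% below in this comparison, the rest being tied. The set was listed with differences between these arrays known, so nothing is read from these counts. The order is not settled for AGPS and LPCAT3. The AGPS difference of 0.01 became -0.02 under loess and -0.04 under repeated quantile normalization. The LPCAT3 difference of 0.03 became -0.03 under repeated quantile normalization. With 1 array on each side, an effect of the drug and a difference between these cultures cannot be told apart.

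Genes of the surrounding pathways came from 8 lists, of which 98 of 111 genes were measured, and 5 of the 111 stand in more than 1 list. In 8R- cells 5 of the 98 were at least 2-fold higher and 4 lower than in parental LoVo, and in 8R+ cells 4 and 4. Past 2-fold were thus 9.18% of the 98 genes in 8R- cells and 8.16% in 8R+ cells, against 4.42% and 4.56% of all genes. The lists were chosen with earlier results of these arrays known, so nothing is read from these shares. The median difference of the 98 genes was 0.00 in both cultures, as was that of all genes. At 2-fold on both arrays, 3 of the 98 were higher and 3 lower, and the same share over all genes was not counted. These were PLA2G4A, LYPLAL1 and LPAR6 on the higher side, and PLA2G2A, GPAT3 and LPAR1 on the lower.

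The list of later ether lipid synthesis also holds the peroxisomal import receptors PEX5 and PEX7 and the alpha-oxidation enzymes PHYH and HACL1. Of its 8 measured genes, 0 were past 2-fold on either array, with medians of -0.02 in 8R- cells and 0.05 in 8R+ cells. CEPT1, a choline and ethanolamine phosphotransferase, had differences of 0.15 and 0.09, and PEX5 had -0.51 and -0.30. Of 12 measured peroxisome biogenesis genes, 0 were past 2-fold on either array, with medians of 0.00 and -0.02. PEX10 had -0.43 and -0.53.

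Of 8 genes of plasmalogen breakdown and PAF turnover, 0 were past 2-fold in 8R- cells and PLA2G7 alone in 8R+ cells. PLA2G7, the secreted PAF acetylhydrolase, had levels of 6.57, 7.19 and 8.43, or differences of 0.61 and 1.86. PAFAH1B3, a catalytic subunit of another PAF acetylhydrolase, had 0.48 and 0.87. PTAFR, the PAF receptor gene, stood at 6.62 on all arrays, under the array medians. The secreted enzyme thus differed more than its intracellular counterpart PAFAH2.

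Most genes for tetrahydrobiopterin, the AGMO cofactor, had slightly lower levels in LoVo-R8 than in parental cells. Of 7 measured, 0 were higher and 0 lower at 2-fold in 8R- cells, and 0 were higher and 1 was lower in 8R+ cells, with medians of -0.26 on both arrays. GCH1, which catalyses the entry step of synthesis, had levels of 8.59, 7.61 and 8.19, or differences of -0.97 and -0.40. PCBD2, a pterin dehydratase, had differences of -0.95 and -1.16. None of the 7 was above parental LoVo in 8R- cells, where 6 were below it and PCBD1 was level. Of all genes 48.9% were above and 38.5% below in 8R- cells, the rest being tied. In 8R+ cells 2 of the 7 were above parental LoVo and 5 below it, against 40.9% and 44.7% of all genes.

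Among 13 measured acyltransferases outside the LPCAT genes, 1 was lower and 0 higher at 2-fold on each array. GPAT3, which starts glycerolipid synthesis in the endoplasmic reticulum, had levels of 9.50, 8.27 and 8.26, or -1.22 and -1.24. GPAM, its mitochondrial counterpart, had -0.86 and -0.48. The medians of the list were -0.14 and -0.04.

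The list of lysophospholipases and of phospholipases A2, the latter making the substrates of the LPCAT enzymes, held genes on both sides. Of 29 measured, 3 were higher and 2 lower in 8R- cells, and 2 and 1 in 8R+ cells. PLA2G4A, the cytosolic enzyme that releases arachidonate, had levels of 6.83, 8.16 and 8.93, or 2.52-fold and 4.30-fold of parental LoVo. LYPLAL1, a lysophospholipase-like hydrolase, had 6.95, 8.94 and 9.09, which is 4.43-fold of parental LoVo in 8R+ cells and slightly less in 8R- cells. PLA2G2A, a secreted phospholipase A2, went the other way, with levels of 9.08, 6.67 and 6.80 and differences of -2.41 and -2.28. PLAAT5 (1.18) and ABHD3 (-1.11) also passed 2-fold in 8R- cells, against 0.98 and -0.32 in 8R+ cells, and were named after their values were seen.

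Among 11 genes of lysophosphatidic acid formation and its receptors, 1 was higher and 1 lower on each array, and both encode receptors. LPAR6 had levels of 5.58, 7.02 and 7.08, or differences of 1.44 and 1.49, and LPAR1 had 7.11, 5.89 and 5.53, or -1.22 and -1.58. Among 15 genes of phosphatidylcholine and phosphatidylethanolamine synthesis, 1 was higher and 0 lower in 8R- cells and 0 were past 2-fold in 8R+ cells. The higher gene was SLC44A2, a choline transporter-like gene (1.27 and 0.83). PCYT2, of the phosphatidylethanolamine branch, had -0.68 and -0.61. The medians of this list were 0.02 and 0.04.

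**Figure D3:**
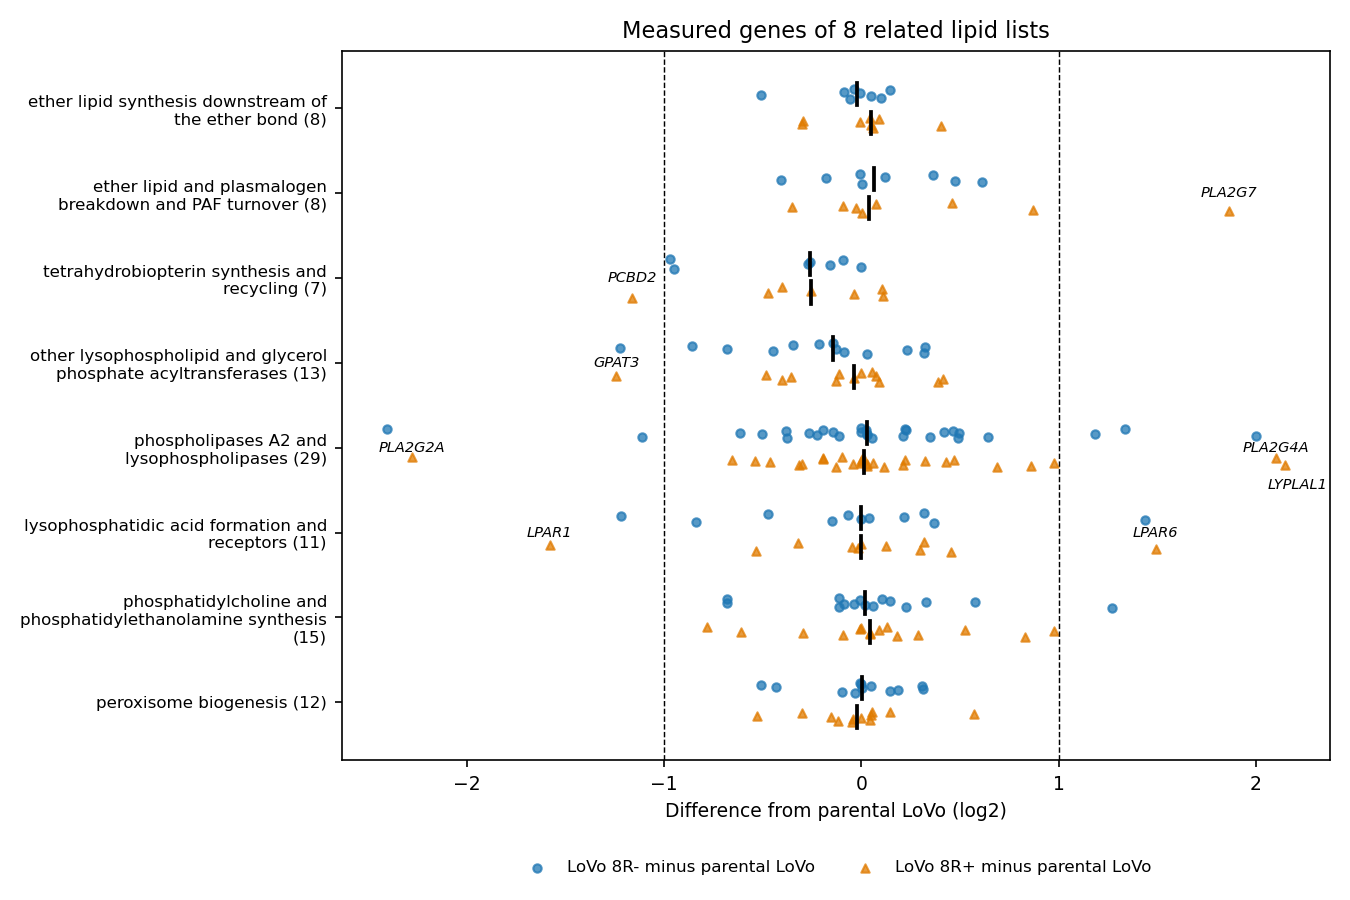
Log2 difference from parental LoVo (horizontal axis) of each measured gene of 8 related lipid lists, in 8R- cells (circles) and 8R+ cells (triangles), with the number measured in brackets, black bars at the medians, dashed lines at 2-fold and names for genes past 2-fold in 8R+ cells. Most genes lie within 2-fold, and the tetrahydrobiopterin list has its medians at -0.26 on both arrays.

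The neighbours of AGMO and LPCAT2 on their chromosomes were read in RefSeq order, 3 measured genes on each side. Next to AGMO on chromosome 7, ETV1, an ETS family transcription factor gene, had levels of 5.13, 7.97 and 8.36, or differences of 2.84 and 3.23. DGKB lies between ETV1 and AGMO and had 0.24 and -0.11. The other neighbours SCIN, MEOX2, SOSTDC1 and ANKMY2 lay between -0.28 and 0.86 on both arrays. ETV1 was thus the only neighbour of AGMO past 2-fold. DGKB (4.99, 5.22 and 4.87) and SOSTDC1 (4.33, 4.45 and 4.45) were dim on all arrays. MEOX2 (6.74, 6.80 and 6.47) was under the array medians, while ANKMY2 was brighter (8.40, 8.40 and 8.68). Small differences of dim genes say little, and a change over the whole stretch was not tested. Around LPCAT2 on chromosome 16, all 6 neighbours (IRX5, IRX6, MMP2, CAPNS2, SLC6A2 and CES1P1) lay between -0.20 and 0.20 on both arrays. In parental LoVo, MMP2 (5.82), CAPNS2 (5.48), SLC6A2 (6.34) and CES1P1 (6.03) were under the array median and had less room to fall than LPCAT2. IRX5 (7.64) and IRX6 (7.01) were above that median. CAPNS2, whose span overlaps LPCAT2, had the same level of 5.48 on all arrays. EMG1, whose span overlaps LPCAT3, had -0.39 and -0.41, opposite to LPCAT3.

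**Figure D4:**
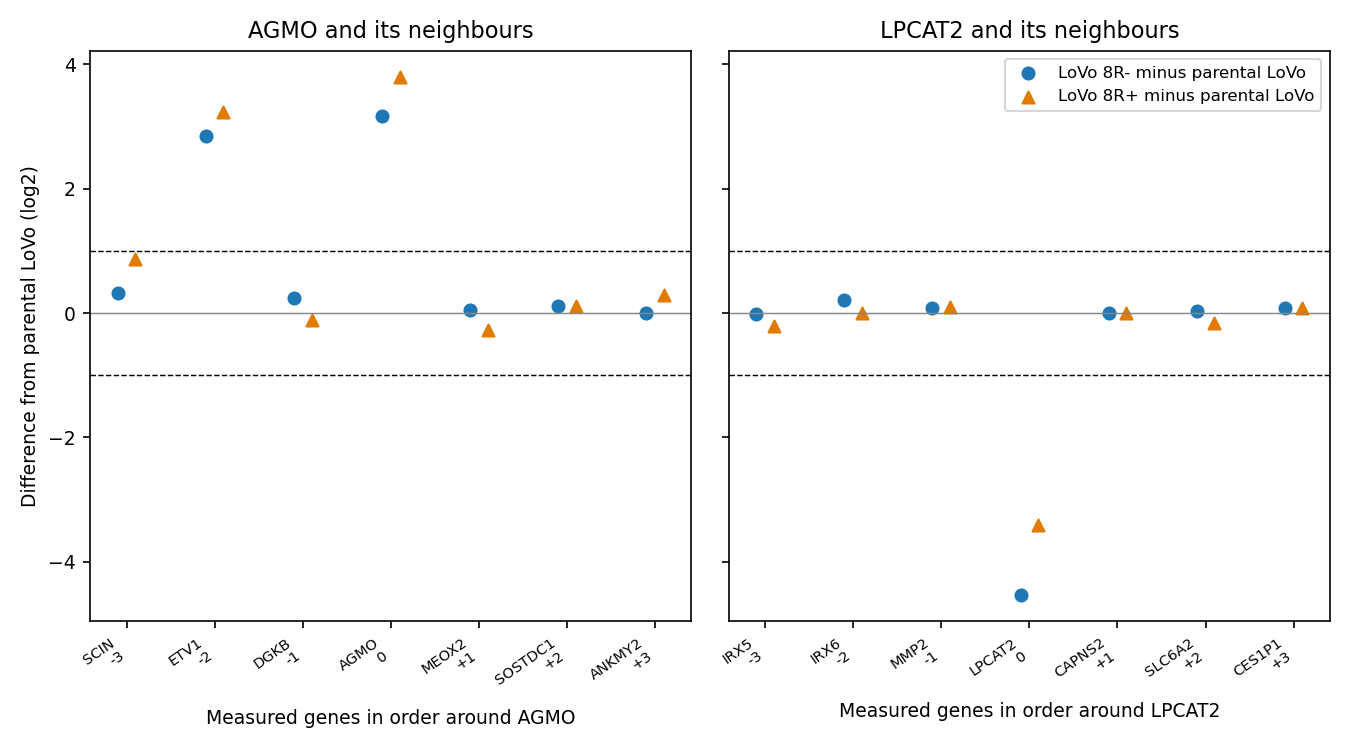
Log2 difference from parental LoVo (vertical axis) of AGMO, LPCAT2 and the 3 measured genes on each side of them in chromosomal order (horizontal axis), in 8R- cells (circles) and 8R+ cells (triangles), with dashed lines at 2-fold. ETV1 is at 2.84 and 3.23 near AGMO, and all neighbours of LPCAT2 lie close to 0.

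The genes most like AGMO were those with the shortest Euclidean distance over the log2 differences of both LoVo-R8 arrays from parental LoVo, a measure that rests on 3 arrays. In order they were CCL20, a chemokine gene (distance 0.48), TFPI, a coagulation inhibitor gene (0.56), ADH1C, an alcohol dehydrogenase gene (0.60), MSLN, which encodes mesothelin (0.65), and ETV1 (0.66). The value of ADH1C is uncertain because its near-identical relatives may hybridise to the same probes. The genes most like LPCAT2 were SPINK6, a protease inhibitor gene (0.25), TPTEP1 (0.55), TDO2, which encodes tryptophan dioxygenase (0.58), GALNT3, a glycosyltransferase gene (0.71), and the cyclin gene CCND2 (0.71). SPINK6 had levels of 8.64, 4.31 and 5.36. Like LPCAT2, SPINK6 and the other genes of this list were lowest in 8R- cells. The distance used favours genes that share this order.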

How the data were processed

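Total RNA (300 ng) of 3 cultures was hybridised, 1 array per culture, to Affymetrix Human Gene 1.0 ST arrays, and groups were taken from the sample labels. The authors normalized the arrays by RMA and deposited log2 levels for 33297 probe sets. Affymetrix Expression Console 1.1 stands in the submitters' processing notes, while the paper names R and Bioconductor. Probe sets were joined to genes through the array annotation. The brightest single-gene probe set stood for a gene, which gave 18417 genes, and probe sets naming several genes (1754) or none (12083) were not used. Log2 levels were subtracted and counted at 2-fold. No test was possible. The calculation was checked on simulated data. Members and lists were chosen with earlier results of these arrays known. Named genes are all members, per related lipid list those at 2-fold on both LoVo-R8 arrays and the 2 largest differences in LoVo 8R-, the 3 neighbours on each side of AGMO and LPCAT2, and the 5 genes nearest to each. Cell type markers, PEX7, PHYH, HACL1, PTAFR, PCBD1, PLAAT5 and ABHD3 were named outside this rule, after their values were seen. Alternatives were 1.5-fold or 3-fold, median centring, loess (span 0.3, 3 iterations), repeated quantile normalization, averaging a gene's probe sets, and dim filters at the 25th percentile or the median. The detection calls and p-values of the paper were not used here. Promoters came from RefSeq tables of GRCh38.p14. Python 3.11.15, numpy 2.4.6, pandas 2.3.3, statsmodels 0.14.6 and matplotlib 3.10.9 were used.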

Additional observations from a re-analysis of the deposited data

How the results depend on the processing

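All 30 member differences (10 genes, 3 comparisons) kept their side of 2-fold under median centring, loess and repeated quantile normalization. Those past 2-fold also kept their direction. The largest shift was 0.11 on the log2 scale. Averaging of probe sets could not change these differences, since each member has 1 probe set. The count of 3 members past 2-fold against parental LoVo became 2 at 3-fold on either LoVo-R8 array, where LPCAT3 drops out. At 1.5-fold it became 4 in 8R+ cells, where LPCAT1 joins. It stayed at 3 under the other alternatives tried. Between the LoVo-R8 arrays, the count of 1 member became 3 at 1.5-fold, 0 at 3-fold and 0 when the brighter array had to reach its median, since LPCAT2 was under the median on both. Among the related lipid genes, the count of 9 in 8R- cells became 19 at 1.5-fold and 2 at 3-fold, and the count of 8 in 8R+ cells became 17 and 4. Between the LoVo-R8 arrays, 1 related gene became 5 at 1.5-fold and 0 at 3-fold. No paired analysis was possible because each condition has 1 array. Low signal limits the size of the AGMO difference on the parental side, and may limit that of LPCAT2 in 8R- cells. There LPCAT2 was just above the first quartile, and in 8R+ cells it was under the array median. No value has an error.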
